A study of Mus musculus with 4 samples.

Results

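Matrix metalloproteinases are zinc enzymes that cut collagens, proteoglycans and other proteins of the extracellular matrix, and the tissue inhibitors of metalloproteinases (Timps) bind their active sites and block them. Fibroblasts make both. Inflammatory cytokines are known to induce stromelysins and collagenases in these cells, through AP-1 factors (Fos and Jun proteins) among others, while Mmp2 and Mmp14 are known for steady expression. The 8 genes described here are Mmp2, Mmp3, Mmp10, Mmp13, Mmp14, Timp1, Timp2 and Timp3, taken by gene symbol from the probe annotation. They have 19 of the 45101 probe sets and are 8 of 18193 named genes, of which 16269 were analysed. All 8 passed the filter on low signals. The members were chosen with earlier results of these arrays known, and their split into 3 late enzymes (Mmp3, Mmp10, Mmp13) and 5 others (Mmp2, Mmp14, Timp1, Timp2, Timp3) follows what the arrays showed, so it is a description and not a finding.

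The cells were mouse embryonic 3T3 fibroblasts, an immortal line. After 24 h at low density in medium with 10% serum, they spent a night in 0.5% serum. The basal cells were then harvested, and the others were harvested after 0.5, 2 or 12 h of tumour necrosis factor (TNF), an inflammatory cytokine. TNF was given at 10 ng/ml for the shortest and the longest time. For the 2 h cells the labels give the time, but their treatment text is that of the basal cells and states no dose. Total RNA from each was hybridised to 1 Affymetrix mouse genome array, so each of the 4 groups has n = 1, replicate error is unknown and no test could be made. All ratios to basal share the 1 basal array. Cells kept for the same times without TNF were not analysed here, so time in low serum and TNF cannot be told apart.

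The median signal of all probe sets went from 22.1 in basal cells to 19.9 at 12 h, and the log2 ratio to basal had a median of -0.05, -0.12 and -0.20 over the probe sets of the 0.5, 2 and 12 h arrays. As a measure of RNA integrity, the ratio of signal at the 3' end to the 5' end ran from 1.21 to 1.26 for Actb and from 0.736 to 0.776 for Gapdh. Of 12 fibroblast markers 11 were above the floor on some array. The collagen genes Col1a1 and Col1a2 and the filament gene Vim had signals of at least 3320, while Dcn, Lum and Thy1 stayed at 20.7 or below on every array and Fap was under the floor on all 4. Of 10 macrophage and leukocyte markers 7 were above the floor on some array, Ptprc, Itgam and Mmp12 were not, and the summed signal of the 7 ran from 244 to 278, beside 30945 to 32917 for the fibroblast markers. The sums were 68.1 to 70.2 for endothelium (5 of 6 markers, Vwf under the floor on all arrays), 117 to 144 for epithelium (7 of 7) and 1478 to 1914 for adipocytes (4 of 5). Nearly all of the adipocyte sum was Fabp4, which read 1856, 1886, 1639 and 1450, while Adipoq, Lpl and Cidec stayed at 12.8 or below on every array. The adipocyte sum was lowest at 12 h, as was the fibroblast sum, and its part in the results was not tested. The sums add signals of different probe sets over lists of unlike length, with low signals raised to the floor, so they do not measure how common a cell type was. In RNA of whole cultures, fewer cells of a type and less RNA per cell cannot be told apart.

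The promoters of the 3 late enzymes are shown first because they carry letters that the 4 other promoters found lack. The late enzymes were grouped by their rise on these arrays, so the contrast is a description. Promoters of the other Mmp genes near them on chromosome 9 were not set beside them. RefSeq start sites (GRCm38.p6) were matched for 7 of the 8 genes, not for Mmp2. The 120 bases before the start are printed 5′ to 3′ in the direction of transcription, for the 3 late enzymes and, for contrast, for Mmp14 and Timp1. Capitals mark matches, on either strand, to TGAGTCA (the AP-1 element), TATAAA (the TATA box), GGGCGG (the GC box) or an NF-kB element (GGG and TTCC with any 3 bases between them).
Mmp3 (chr9:7445702-7445821, plus strand): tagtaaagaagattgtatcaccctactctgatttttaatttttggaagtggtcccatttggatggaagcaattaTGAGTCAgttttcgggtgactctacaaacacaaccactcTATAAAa
Mmp10 (chr9:7502222-7502341, plus strand): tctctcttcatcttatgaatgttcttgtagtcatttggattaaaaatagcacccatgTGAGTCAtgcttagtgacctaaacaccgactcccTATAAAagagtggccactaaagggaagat
Mmp13 (chr9:7272394-7272513, plus strand): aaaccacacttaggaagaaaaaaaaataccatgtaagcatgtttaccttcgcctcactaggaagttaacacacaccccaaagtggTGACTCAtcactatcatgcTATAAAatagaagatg
Mmp14 (chr14:54431478-54431597, plus strand): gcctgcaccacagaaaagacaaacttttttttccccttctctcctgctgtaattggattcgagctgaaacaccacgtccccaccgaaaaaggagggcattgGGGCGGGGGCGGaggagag
Timp1 (chrX:20870046-20870165, plus strand): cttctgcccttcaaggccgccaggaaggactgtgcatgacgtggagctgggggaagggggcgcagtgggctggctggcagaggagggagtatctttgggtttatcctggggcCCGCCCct

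Over the 250 bases before the start, each of the 3 late enzymes had 1 match to TGAGTCA and 1 to TATAAA. The AP-1 letters began 46 bases before the start in Mmp3, 63 in Mmp10 and 35 in Mmp13, where they lie on the opposite strand, and the TATA letters followed them in each promoter. They began 7, 29 and 16 bases before the start of Mmp3, Mmp10 and Mmp13. None of the 4 other promoters held either motif. Mmp14 had 2 matches to the GC box, and Timp1, Timp2 and Timp3 had 1 each. The NF-kB letters were in none of the 7 windows. Of 32851 RefSeq promoters of this length, 4.46% held TGAGTCA, 12.4% TATAAA, 32.7% GGGCGG and 4.65% the NF-kB letters, and 0.721% held both of the first 2. A match describes letters and is not a measured binding site.

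**Figure D1:**
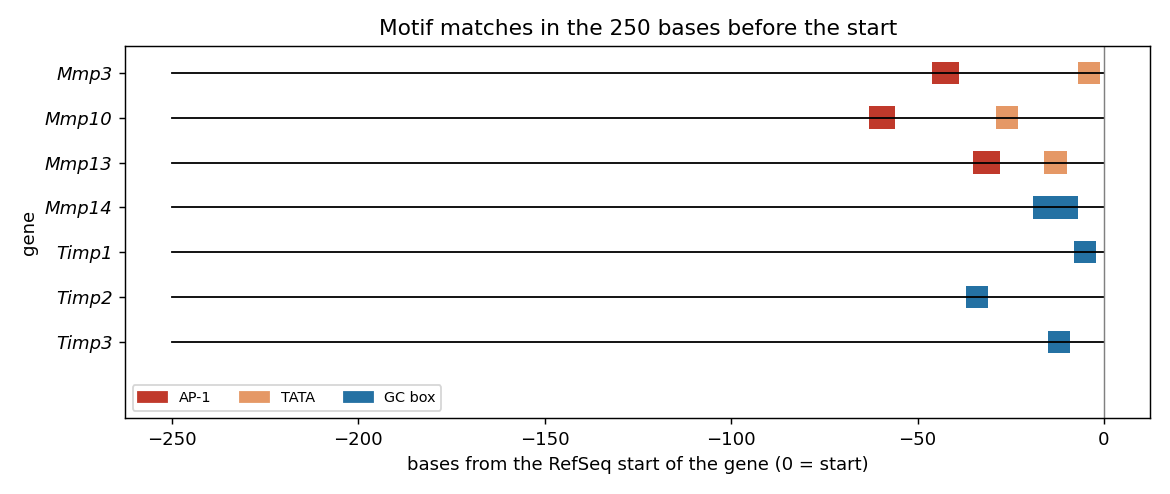
Matches to the AP-1, TATA and GC box letters in the 250 bases before the RefSeq start of 7 genes; the x axis is the distance in bases from the start and each box is 1 match, the pair in Mmp14 adjoining. AP-1 and TATA matches appear in Mmp3, Mmp10 and Mmp13, and GC boxes in Mmp14 and the 3 Timp genes.

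The 3 late enzymes rose after TNF, each highest on the 12 h array, while Mmp2, Mmp14 and the Timp genes stayed within 2-fold of basal at every time. Signals are the deposited linear intensities. A ratio of at least 2-fold to basal is called a rise or fall, after signals under the floor of 9.08 (the 30th percentile of all values) were raised to it. Signals of different probe sets are not compared as amounts of RNA, since each probe set binds with its own strength. As a measure of how far 2 arrays differ at a given signal, each ratio is set beside the scaled median absolute deviation, here called the scatter, of the same ratio over the 500 probe sets nearest in mean signal. That scatter holds real changes as well as noise.

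Mmp13 encodes a collagenase that cuts fibrillar collagen. Its probe set (1417256_at) read 36.0 on the basal array, then 55.6 after 0.5 h, 143 after 2 h and 437 after 12 h. The signal was thus higher on each later array, and each step was larger than the scatter. The log2 ratio to basal was 0.63 at 0.5 h, short of the rule, beside a scatter of 0.26. At 2 h it was 1.99, a 3.97-fold rise, and Mmp13 was the only 1 of the 8 genes past 2-fold. At 12 h it was 3.60, a 12.1-fold rise, beside a scatter of 0.40. Of 16269 genes, 8 had a larger ratio at 12 h and 37 a larger ratio at 2 h.

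Mmp3 encodes stromelysin-1, which cuts proteoglycans, fibronectin and other matrix proteins and activates other pro-enzymes of the family. Its probe set (1418945_at) read 282, 329, 495 and 1471 in basal cells and at 0.5, 2 and 12 h. The order was again that of time, with every step beyond the scatter. The log2 ratios were 0.22 and 0.81 at 0.5 and 2 h, both short of 2-fold, and 2.38 at 12 h, a 5.22-fold rise with a scatter of 0.28. There were 27 genes with a larger ratio at 12 h, against 660 at 2 h.

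Mmp10 encodes stromelysin-2, a close relative of Mmp3. Its probe set (1420450_at) read 19.4, 20.4, 31.8 and 95.3, all low signals. The basal and 0.5 h values differed by less than the scatter of 0.45. The log2 ratio was 0.71 at 2 h, beside a scatter of 0.50, and 2.29 at 12 h, a 4.90-fold rise with a scatter of 0.59, and 30 genes had a larger ratio at 12 h. The signal of Mmp10 stayed under 102, the 75th percentile of all values, on every array, so it drops out where that higher floor is used.

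From 2 to 12 h the 3 enzymes rose by nearly the same factor, 2.97-fold for Mmp3, 2.99-fold for Mmp10 and 3.06-fold for Mmp13. The scatter of this log2 step was 0.23, 0.62 and 0.30, so the factors are not known closely enough to call them equal. The enzymes parted earlier. From 0.5 to 2 h the log2 step was 1.36 for Mmp13 but 0.59 for Mmp3 and 0.64 for Mmp10. At 2 h Mmp13 had reached 55.2% of its log2 rise of 12 h, Mmp3 34.1% and Mmp10 31.0%. Another 43 genes were at least 2-fold higher at 12 h with signals raised to the higher floor. Their median share was 66.3% at 2 h, and 15 of them had reached less than 50% by then. With signals raised to that floor, 10 of 7311 genes stepped up at least 2-fold from 2 to 12 h; Mmp13 was the 4th largest and Mmp3 the 5th.

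**Figure D2:**
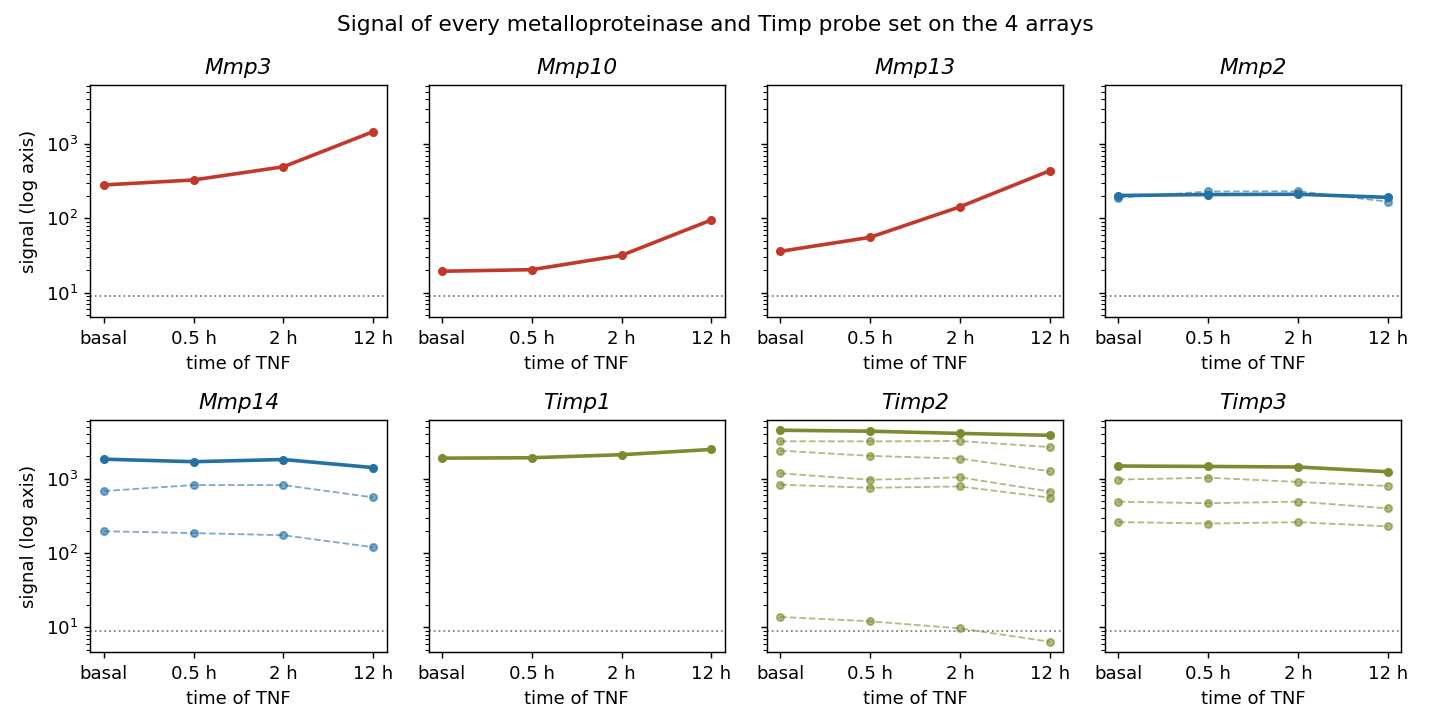
Signal (log axis) of each of the 19 probe sets on the basal array and after 0.5, 2 and 12 h of TNF, 1 panel per gene; solid lines are the probe set that stands for the gene, dashed lines its other probe sets, and the dotted line is the floor of 9.08. Mmp3 reached 1471, Mmp10 95.3 and Mmp13 437 at 12 h, while every line of Mmp2, Mmp14 and the Timp genes stays within 2-fold of basal once signals are raised to the floor; the largest decrease is that of a Timp2 probe set from 2394 to 1264.

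Mmp2 encodes gelatinase A, which cuts denatured and basement membrane collagen. Its probe set 1416136_at read 203, 209, 211 and 192, and all 3 neighbouring values in this order were within the scatter. The second, 1439364_a_at, read 189, 230, 232 and 168. Its log2 ratio of 0.28 at 0.5 h was beyond the scatter of 0.18, and at 12 h the ratios of the pair were -0.08 and -0.17. For the first the sign at 12 h depended on scaling, with 0.07 after median centring, 0.15 after quantile normalization and 0.15 after loess.

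Mmp14 encodes a membrane-bound enzyme that, together with Timp2, activates pro-Mmp2 at the cell surface. Its brightest probe set (1448383_at) read 1837, 1700, 1819 and 1415, and 1416572_at read 684, 825, 823 and 562. The third, 1440920_at, read 197, 186, 174 and 120. All 3 were lowest at 12 h, with log2 ratios of -0.38, -0.28 and -0.72. At 0.5 h they disagreed, with -0.11, 0.27 and -0.08.

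Timp1, the inhibitor gene best known for induction by cytokines and growth factors, was the only 1 of the 5 whose signal was highest at 12 h. Its single probe set (1460227_at) read 1896, 1921, 2110 and 2486. Basal and 0.5 h lay within the scatter of each other, and the later steps did not. The log2 ratio was 0.15 at 2 h and 0.39 at 12 h, a factor of 1.31 and short of a rise by the rule. The 500 probe sets of like signal had a median of -0.21 at 12 h with a scatter of 0.20, so Timp1 stood 2.95 scatter units above them. After scaling the value at 12 h was 0.55 to 0.57.

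Timp2 encodes an inhibitor that also takes part in the activation of pro-Mmp2. Its 6 probe sets were all below basal at 12 h, also after median centring, quantile normalization and loess, but they disagreed in size. The brightest (1460287_at) read 4502, 4373, 4081 and 3850, a log2 ratio of -0.23 at 12 h, and 1454677_at read 3201, 3193, 3226 and 2671 (-0.26). In contrast, 1433662_s_at went from 2394 through 2037 and 1873 to 1264, a log2 ratio of -0.92. Likewise 1450040_at went from 1186 through 970.3 and 1047 to 674 (-0.81), and 1420924_at read 835, 757, 789 and 558 (-0.58). The probe set with the largest decrease, 1433662_s_at, stood at -3.25 scatter units from the median of those of like signal, and 1450040_at at -2.70, while the brightest stood at -0.544. The remaining one, 1437081_at, went from 13.8 to under the floor and gives only a bound. With the floor, none of the 6 reached 2-fold.

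Timp3 encodes an inhibitor that is held in the matrix and also blocks ADAM enzymes. Its probe set 1449335_at read 1486, 1468, 1442 and 1244, and 1419089_at read 977, 1034, 908 and 800. The dimmer pair read 492, 469, 493 and 400 (1449334_at) and 262, 250, 261 and 229 (1419088_at). All 4 were lowest at 12 h, with log2 ratios from -0.30 to -0.19. Each of the 4 stood within 1 scatter unit of probe sets of like signal, whose medians ran from -0.25 to -0.21.

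**Figure D3:**
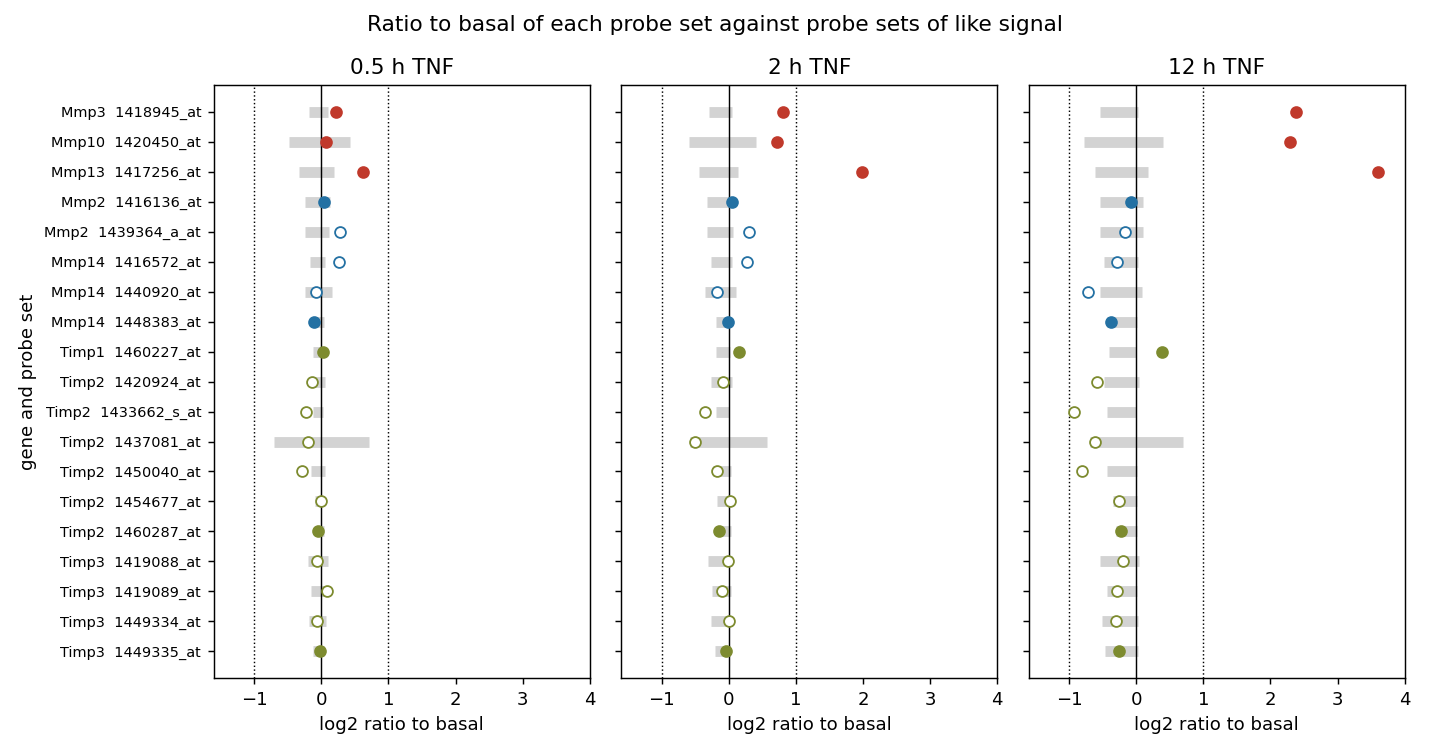
Log2 ratio to basal of each of the 19 probe sets at 0.5, 2 and 12 h; filled points are the probe set that stands for its gene, grey bars span the median plus and minus 1 scatter unit of the 500 probe sets of like signal, and dotted lines mark 2-fold. Mmp3 and Mmp13 lie above the grey bars at 0.5 h and all 3 late enzymes at 2 h. Of the 16 probe sets of the other members, 3 also lie above their bars at 0.5 h and 3 at 2 h. Mmp13 is past 2-fold at 2 h and all 3 late enzymes at 12 h, and Timp1 lies above its bar at 12 h.

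Counted over the genes, 0 of the 8 were past 2-fold at 0.5 h, beside 2.55% of all 16269 genes higher and 2.96% lower. At 2 h 1 of 8 was higher and 0 lower, beside 2.58% and 3.6%. At 12 h 3 of 8 were higher and 0 lower, beside 2.79% and 5.18%. These late enzymes had been picked for that pattern, so nothing is read from the difference. The median log2 ratio at 12 h was 2.38 for the 3 late enzymes, -0.23 for the 5 other members and -0.14 over all genes. With signals raised to the higher floor 7 members were left, of which 2 were higher at 12 h, beside 0.616% of 7311 genes, and 0 lower, beside 1.72%.

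That median over all genes went to 0.00 with each of the 3 scalings, which bring the arrays to a common level by design. As deposited, a ratio near -0.14 at 12 h is at the level of all genes, and the median was -0.19 with the higher floor. The split of all genes at 12 h moved with scaling, from 454 higher and 842 lower as deposited. It became 683 and 617 after median centring, 641 and 549 after quantile normalization and 810 and 585 after loess. Of the 16 probe sets of the 5 other members, 15 were below basal at 12 h as deposited, 14 after median centring and 12 after quantile normalization or loess. None passed 2-fold under any of these. At 12 h 11 of the 16 lay within 1 scatter unit of probe sets of like signal, 1 above and 4 below. At 0.5 h 11 lay within, 3 above and 2 below, and at 2 h 12, 3 and 1. The furthest above at both times was 1416572_at of Mmp14, at 2.89 and 2.50 scatter units. The late enzymes stood at 0.204 to 2.73 units at 0.5 h and at 1.61 to 7.31 at 2 h. With the 4 signals of each probe set sorted by size and not by time, these 16 have 48 pairs of neighbouring values. Of the 48, 31 differed by no more than the scatter, against 1 of 9 pairs for the late enzymes, whose order is also that of time. Where the orders differ, such pairs leave out larger steps in time. An example is 1439364_a_at of Mmp2 from 2 to 12 h, a log2 step of -0.47 beside a scatter of 0.28.

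**Figure D4:**
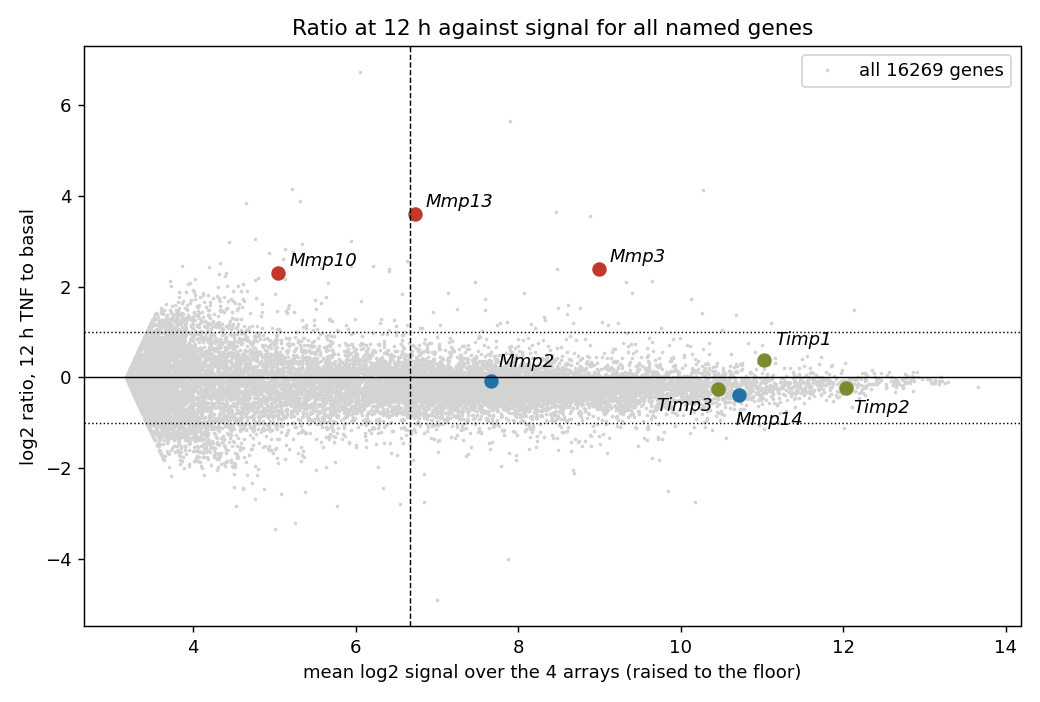
Log2 ratio of 12 h TNF to basal (y axis) against the mean log2 signal over the 4 arrays (x axis) for 16269 genes in grey, with the 8 genes labelled; dotted lines mark 2-fold and the dashed line the higher floor of 102. Mmp3 and Mmp13 lie right of the dashed line and Mmp10 left of it, all above 2-fold, and the other members lie between the dotted lines.

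The change of an enzyme relative to an inhibitor on the same arrays does not depend on one overall scaling factor. At 12 h the log2 ratio of Mmp3 exceeded that of Timp1 by 1.99, that of Timp2 by 2.61 and that of Timp3 by 2.64. Mmp10 exceeded them by 1.90, 2.52 and 2.55, and Mmp13 by 3.21, 3.83 and 3.86. The as-deposited values and the 3 scalings gave 1.90 to 3.92 over these pairs. That range takes each gene by the probe set that stands for it. Other Timp2 probe sets had log2 ratios down to -0.92 at 12 h, against -0.23 for the one used. With those the differences from Timp2 would be larger. These are differences between changes of RNA signal, and the amounts of enzyme and inhibitor were not measured.

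Mmp3, Mmp10 and Mmp13 lie in a row of 10 Mmp genes on mouse chromosome 9, in the order Mmp13, Mmp12, Mmp1b, Mmp3, Mmp1a, Mmp10, Mmp8, Mmp27, Mmp20 and Mmp7 (RefSeq, GRCm38.p6). Of these 10, 7 were analysed, and the rise at 12 h was seen for the 3 members and for 0 of the other 4. Mmp12 and Mmp1a were under the floor on all arrays. Mmp1b, Mmp7, Mmp8 and Mmp20 had signals of at most 15.7, too low to show a small change. The genes on either side of the row, Dcun1d5 and Tmem123, had log2 ratios of -0.20 and 0.05 at 12 h.

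Further genes of matrix breakdown were taken from 8 lists of 91 genes, of which 76 were analysed. At 12 h 3 of the 76 were higher and 1 lower and their log2 ratios had a median of -0.02, beside the shares of 2.79% and 5.18% over all genes. All 4 belong to the transcription factors known to act on Mmp promoters. At 0.5 h 4 of the 76 were higher and 2 lower, beside 2.55% and 2.96% of all genes, and at 2 h 2 and 2, beside 2.58% and 3.6%. At such shares a short list can hold 0 genes past 2-fold, so nothing is read from a count of 0. Each gene is counted by the probe set that stands for it, and other probe sets of some list genes passed 2-fold.

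Of 11 other Mmp genes, 0 were higher at any time by the probe set that stands for the gene. The shares of all genes at 0.5, 2 and 12 h were 2.55%, 2.58% and 2.79% higher and 2.96%, 3.6% and 5.18% lower. Mmp17, which encodes an enzyme anchored to the membrane by a lipid, read 49.0, 24.5, 19.1 and 33.4. It was just past 2-fold lower at 0.5 h and 2.56-fold lower at 2 h, and its log2 ratio was -0.55 at 12 h, so 1 of 11 fell at 0.5 h, 1 at 2 h and 0 at 12 h. Only Mmp11 and Mmp16 of the 11 reached a signal of 102. The probe sets of Mmp16 disagreed, with log2 ratios from -0.67 to 1.05 at 12 h. Mmp11 and Mmp16 are named outside the naming rule, after their values were seen. Among 4 further inhibitors 0 passed 2-fold. Reck, a membrane-anchored inhibitor, went from 333 to 223 (-0.58 at 12 h); it is named outside the naming rule, after its values were seen.

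Of 14 ADAM and ADAMTS genes, which encode sheddases and proteoglycan-cutting enzymes, 0 passed 2-fold at any time by the probe set that stands for the gene. Other probe sets did pass it, that of Adam19 with a log2 ratio of 1.34 at 0.5 h and 1 of Adamts9 with 1.55 at 2 h. For Adam15 the highest ratios were 1.14 at 2 h and 1.94 at 12 h. Those named here were also picked after their values were seen. The aggrecan-cutting enzyme gene Adamts4 read 108, 87.2, 171 and 179 (0.73 at 12 h, against 1.36 for its other probe set), and Adamts1 read 990.4, 1177, 716 and 544 (-0.86). Of 7 genes of plasminogen activation and Mmp processing, Plg, the gene of plasminogen, went from under the floor to 22.1 at 0.5 h, at least 2.43-fold, and was under the floor again at 12 h. Cathepsins (6 genes) and binding partners (7) had 0 genes past 2-fold by the probe set that stands for the gene. Another probe set of Thbs2, a binding partner named after its values were seen, had a log2 ratio of 1.10 at 0.5 h.

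Of 13 genes of matrix proteins, some of which are substrates of these enzymes, 0 passed 2-fold at 12 h, and the median of their log2 ratios was 0.05. The collagen gene Col1a1, also named outside that rule, read 3388 in basal cells and 3320 at 12 h. By the probe set that stands for the gene, the proteoglycan gene Dcn was the only 1 past 2-fold at earlier times. It went from 19.9 to under the floor at 0.5 h and to 9.86 at 2 h, all low signals.

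Of 14 transcription factors, 3 were higher at 0.5 h and 0 lower, beside 2.55% and 2.96% of all genes. Fos, a subunit of AP-1, read 151, 526, 97.9 and 22.6, so it rose at 0.5 h (3.50-fold) and was 6.68-fold lower than basal at 12 h. Junb, another AP-1 gene, read 323, 688, 356 and 168, a rise of 2.13-fold at 0.5 h. Relb, an NF-kB subunit, read 20.2, 46.4, 138 and 110, and Nfkb2, its usual partner, 83.1, 113, 240.5 and 235. Both were past 2-fold at 2 and 12 h, Relb by 6.80-fold and 5.46-fold and Nfkb2 by 2.89-fold and 2.83-fold, although a second probe set of Nfkb2 gave log2 ratios of 0.63 and 0.54. Fosb, an AP-1 gene, rose from under the floor to 18.9 at 12 h, at least 2.08-fold; it falls outside the naming rule and is named to complete the count at 12 h. Fos and Junb were highest at 0.5 h, as were Jun and Fosl1, which stayed short of 2-fold. Fosl2 was highest at 2 h (log2 ratio 0.34) and Fosb at 12 h. Jund was below basal at each time by the probe set that stands for it. At 12 h the log2 ratios were -0.95 for Junb, -0.44 for Jun, -0.91 for Fosl1, -0.66 for Jund and -0.10 for Fosl2. Jun, Fosl1, Fosl2 and Jund fall outside the naming rule. Whether AP-1 took part in the rise of the late enzymes was not tested.

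**Figure D5:**
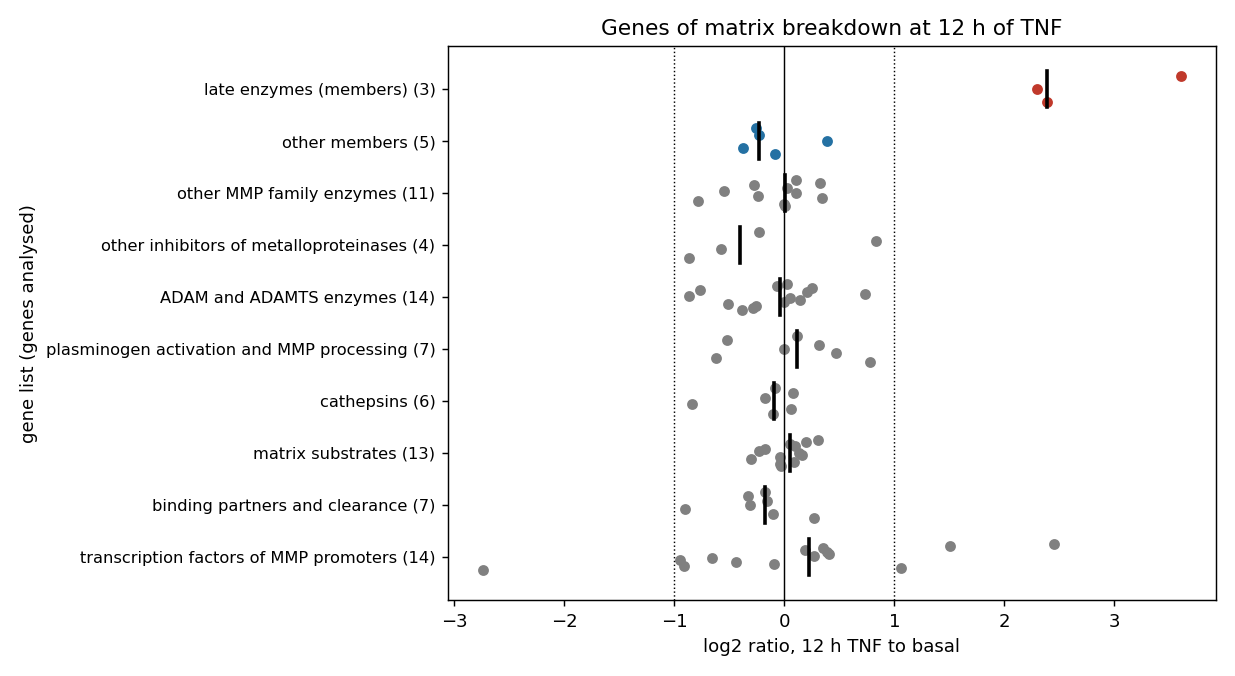
Log2 ratio of 12 h TNF to basal for the members and for the genes of 8 lists, 1 point per gene, with the number analysed in parentheses; black bars are medians and dotted lines mark 2-fold. The 3 late enzymes lie between 2.29 and 3.60, and outside the members only transcription factors pass 2-fold.

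The genes with patterns most like the late enzymes were found by the Euclidean distance between the log2 ratios at 0.5, 2 and 12 h, over 4 arrays and 7304 genes with a signal above 102 on some array. The distance between Mmp3 and Mmp10 was 0.21, smaller than from either of them to any of those genes. Nothing is read from this, since both were picked for their pattern and Mmp10 itself stayed under 102. The distance is also smaller than the scatter of Mmp10, which was 0.45 to 0.59 over the 3 times. For Mmp3 the nearest were Xaf1 (0.457), Cd74 (0.490), Slc2a6 (0.598), Ifitm3 (0.655) and Psmb10 (0.725). Xaf1, an interferon-induced gene, read 31.2, 36.5, 43.3 and 132, and Cd74, the invariant chain of MHC class II, 24.6, 26.5, 60.1 and 131. For Mmp10 the nearest were Xaf1, Ifitm3, Cd74, Slc2a6 and Cdsn.

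Mmp13 had no gene as close. Its nearest were Abca1 (0.952), Gbp2 (1.25), Ccl9 (1.28), Lcn2 (1.31) and Casp4 (1.33). Abca1, a cholesterol exporter, read 14.5, 25.4, 39.7 and 104, and the chemokine gene Ccl9 34.3, 69.4, 124 and 180, both higher on each later array as Mmp13 was. Casp4 was under the floor in basal cells, so its ratios are bounds. Mmp3 was at a distance of 1.74 from Mmp13 and Mmp10 at 1.91.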

How the data were processed

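RNA of 4 samples was measured on 4 arrays, grouped by the sample titles. The deposited intensity values are linear, 1 per probe set and array; how the authors computed and scaled them is not given in the sources used here. Of 45101 probe sets, 64 were controls, the platform annotation named 1 gene for 34958 and several for 932, and 9211 named none. Symbols of 34754 were found in RefSeq (GRCm38.p6), and 0 changed. The floor was the 30th percentile over the 4 arrays (9.08), to which lower signals were raised. Of several probe sets, the one brightest on average (mean log2) stood for the gene. Ratios to basal used the deposited values without further scaling. With 1 array per group, no test was possible, and the number of arrays limits the precision. Calls at 2-fold were checked on simulated data, in which only genes with a mean signal above the 75th percentile were changed, by more than 2-fold. The simulated noise was smaller than the scatter seen at 12 h for Mmp3, Mmp10 and Mmp13. The check therefore does not show how reliable their calls are, and it does not bear on calls at low signal. Alternatives were other floors (20th, 50th and 75th percentile, none), 3 scalings, other probe set rules, another reference array and a 3-fold threshold. Named genes were all members, in each list up to 4 of the largest changes past 2-fold, and the 5 genes most like each late enzyme, besides cell type markers and the chromosome 9 neighbours; exceptions are stated where they occur. The members, lists and higher floor were chosen with earlier results of these data known. Python 3.11.15, pandas 2.3.3 and statsmodels 0.14.6 (loess span 0.3) were used.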

Additional observations from a re-analysis of the deposited data

How the results depend on the processing

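The 3 rises at 12 h kept their direction and stayed past 2-fold wherever the gene was analysed: over the alternatives the log2 ratio was 2.27 to 2.61 for Mmp3, 2.18 to 2.48 for Mmp10 and 2.10 to 3.82 for Mmp13. The floor at the 75th percentile removed Mmp10 and raised the low signals of Mmp13. There 0 members were past 2-fold at 2 h, Mmp13 having a log2 ratio of 0.49, because its basal and 0.5 h signals lay under that floor. With scaling the log2 ratios of Mmp2 at 12 h, Mmp14 at 2 h and Timp3 at 0.5 and 2 h changed sign, all staying close to 0 (Mmp2 -0.08 as deposited and 0.15 after quantile normalization). The late enzymes exceeded the other members by more than 1 (log2) at 12 h throughout. Counts of list genes were small and moved with the floor. At the 20th percentile 8, 6 and 6 list genes were higher at 0.5, 2 and 12 h, with 5 lower at 2 h and 4 at 12 h. Without a floor 8, 7 and 9 were higher and 5, 7 and 5 lower. At the 50th percentile 1 was lower at 0.5 h and 1 at 2 h. At the 75th percentile 2, 1 and 1 were higher and 0, 0 and 0 lower. Median centring, quantile normalization, loess and the mean of the probe sets each left 1 lower at 0.5 h and 1 at 2 h, and the mean of the probe sets gave 2 lower at 12 h. With the mean of basal and 0.5 h as reference, 1 was lower at 2 h and 3 at 12 h. With the 3-fold threshold 1 was higher at each time, and 0 were lower at 0.5 h and 0 at 2 h. For these counts the cause was not tested. Over all genes the 454 higher and 842 lower at 12 h became 957 and 1552 at the 20th percentile, 121 and 304 at the 50th, 45 and 126 at the 75th, 1622 and 2338 without a floor, and 103 and 157 at 3-fold. No paired analysis was possible because each group has 1 array. Low signals near the floor limit what can be seen for Mmp10 and most other Mmp genes.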

Other observations

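The letters TGAGTCA and TATAAA, both found before the start of each late enzyme, were also counted in the promoters of the other genes. Outside the 8 members, 78 analysed genes had both in 1 promoter window of 250 bases, and 3 of them (3.85%) were at least 2-fold higher at 12 h, with 3 lower and a median log2 ratio of -0.06. Over the 12997 analysed genes with a promoter sequence, 351 (2.70%) were higher and 661 lower, with a median of -0.14. The 3 genes were Tnfaip3, which encodes the NF-kB inhibitor A20, Slfn4 and Sprr2k, named after their values were seen. With signals raised to the higher floor, 1 of 17 genes with both was higher, again Tnfaip3, beside 36 of 6016. With TGAGTCA alone required, 25 of 592 genes (4.22%) were higher and 27 lower at the main floor, with a median of -0.13. At the higher floor 5 of 213 (2.35%) were higher and 1 lower, beside 36 (0.598%) and 99 of 6016. The 5 were Cxcl10, Fas, Mt2, Nfkbie and Tnfaip3, named after their values were seen. With TATAAA alone required, 46 of 1276 (3.61%) were higher and 60 lower at the main floor. At the higher floor 6 of 461 (1.30%) were higher and 5 lower. A part of these letters in the rises was not tested.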
